A study of Mus musculus with 16 samples.

Results

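The 10 genes described here are Arrdc3, Slc5a3, Avpi1, Fabp5, Sec23b, Sdhaf4, Med24, Mex3b, Samd4 and Rasl11a. They were picked from 18193 measured genes because their response to scratch injury differed between airway epithelial cultures that lack the metalloproteinase Mmp7 and wild-type cultures. The same measurements therefore chose them, and the size of that difference is given as a description, with no test. A total of 17 probe sets, of 34945 that carry a single gene symbol, are annotated to one of these symbols alone, and the probe set with the highest mean over the 16 arrays leads for each gene. Levels are log2 intensities, so a difference of 1 is a doubling, and levels of different probe sets cannot be set against each other.

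RNA came from 16 cultures of C57BL/6 mouse airway epithelium grown at an air-liquid interface, in 4 groups of 4 arrays. The groups were Mmp7-/- scratched, Mmp7-/- uninjured, wild-type scratched and wild-type uninjured. Scratched cultures had received 3 scratches, and cells of every group were kept 24 hours without serum before RNA was isolated. The labels give neither the time between scratch and harvest nor which cultures share an animal, so the p-values measure only the spread between these cultures, and part of that spread may be technical. The single Mmp7 probe set lay below the background level on all 16 arrays (2.13 to 2.59, against a background of 2.97), wild-type arrays included, so it does not check the genotype labels. Of 10 epithelial markers, 10 were above background. Array-to-array correlations ran from 0.988 to 0.998 and no 2 arrays were identical.

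A scratch opens a gap in the cell sheet that the cells at its edge close by spreading and migrating, with later proliferation. Mmp7 (matrilysin) cleaves matrix proteins and proteins at the cell surface, and is known for its part in the repair of airway epithelium. The 10 genes encode proteins of different kinds, and whether they share a pathway was not tested. They encode a receptor adaptor, a solute transporter, a vasopressin-induced protein, a lipid carrier, a vesicle coat subunit, a mitochondrial assembly factor, a subunit of the transcriptional Mediator, 2 RNA-binding proteins and a small GTPase.

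Promoter sequences are shown for the 2 genes with the largest positive and the 2 with the largest negative wild-type response among those in the RefSeq promoter table. They show which short motifs lie directly upstream of genes that responded in opposite directions. Each run is the 250 bases before the first start listed for the gene in GRCm38.p6, written 5′ to 3′ on the gene's strand. Capitals mark matches, on either strand, to the CCAAT box (CCAAT, or ATTGG on the other strand) and to the cyclic-AMP response core (TGACGT). The Avpi1 window lies at chr19:42128994-42129243 (minus strand) and that of Sec23b at chr2:144555979-144556228 (plus strand). The Samd4 window lies at chr14:46882715-46882964 (plus strand) and that of Rasl11a at chr5:146844821-146845070 (plus strand).
Avpi1: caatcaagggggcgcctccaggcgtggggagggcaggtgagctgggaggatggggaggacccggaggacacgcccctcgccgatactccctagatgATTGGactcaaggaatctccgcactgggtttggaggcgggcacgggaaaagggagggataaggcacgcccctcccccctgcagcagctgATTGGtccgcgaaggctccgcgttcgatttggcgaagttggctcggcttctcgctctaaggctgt
Sec23b: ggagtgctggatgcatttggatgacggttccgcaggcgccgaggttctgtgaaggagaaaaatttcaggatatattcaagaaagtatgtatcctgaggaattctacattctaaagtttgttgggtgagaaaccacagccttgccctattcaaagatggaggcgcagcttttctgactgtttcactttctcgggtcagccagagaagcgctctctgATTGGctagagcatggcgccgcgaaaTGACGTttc
Samd4: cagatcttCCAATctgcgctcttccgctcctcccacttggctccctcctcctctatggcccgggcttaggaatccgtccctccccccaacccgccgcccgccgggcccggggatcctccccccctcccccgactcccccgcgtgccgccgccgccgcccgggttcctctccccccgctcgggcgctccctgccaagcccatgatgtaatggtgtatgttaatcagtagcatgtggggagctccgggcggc
Rasl11a: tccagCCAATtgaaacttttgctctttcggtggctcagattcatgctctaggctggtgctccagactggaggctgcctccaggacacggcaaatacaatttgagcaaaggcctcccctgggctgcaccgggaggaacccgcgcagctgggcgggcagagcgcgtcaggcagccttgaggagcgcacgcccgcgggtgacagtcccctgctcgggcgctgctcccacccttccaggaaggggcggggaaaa

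The promoter table held 8 of the 10 genes, and Fabp5 and Med24 had no entry. It listed 3 entries for Arrdc3 and 2 each for Sec23b and Samd4. Only the first entry of each gene was used, and windows at the other starts were not examined. CCAAT was present in 6 of the 8 windows, against 34.5% of the 27025 promoter windows of the same length. TGACGT was present in 2 of the 8, those of Sec23b and Mex3b, against 6.56% of all windows. The AP-1 motif TGANTCA, carried by 6.87% of all windows, and the E-box CACGTG, carried by 6.05%, were in none of the 8. GC content ran from 48.0% in Sec23b to 76.0% in Arrdc3, with a median of 52.0% over all windows. A match is a description of letters and does not show a bound site.

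Arrdc3 encodes an alpha-arrestin, an adaptor that couples cell surface receptors to ubiquitin ligases and so to their sorting and degradation. Its level (probe set 1454617_at) was 10.75, 10.94, 10.87 and 10.97 on the Mmp7-null scratched arrays, against 11.30, 11.18, 11.12 and 11.05 on the Mmp7-null uninjured arrays. On the wild-type scratched arrays it was 11.28, 11.35, 11.25 and 11.34, against 10.85, 10.95, 10.77 and 10.67 on the wild-type uninjured arrays. Scratched cultures were thus low in the null and high in the wild type, with no overlap between scratched and uninjured arrays in either genotype. Null uninjured arrays overlapped the wild-type scratched ones at the high end, and null scratched arrays overlapped the wild-type uninjured ones at the low end. The scratch response was -0.28 ± 0.07 in Mmp7-null and 0.50 ± 0.07 in wild-type cultures (log2 difference of means ± standard error from limma, n = 4 arrays per group here and below).

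Slc5a3 encodes the sodium-dependent myo-inositol cotransporter, which brings in inositol as an osmolyte. Its leading probe set (1435484_at) read 10.52, 10.65, 10.77 and 10.78 in Mmp7-null scratched cultures, against 10.87, 10.79, 10.71 and 10.86 in Mmp7-null uninjured cultures. It read 11.58, 11.56, 11.17 and 11.40 in wild-type scratched cultures, against 10.79, 10.99, 10.82 and 10.81 in wild-type uninjured cultures. The 4 wild-type scratched arrays stood above the 12 others, whereas scratched and uninjured null arrays overlapped. The response was -0.13 ± 0.09 in null and 0.57 ± 0.09 in wild-type cultures. A second probe set (1440227_at) had a response of -0.54 ± 0.46 in null and 0.77 ± 0.46 in wild-type cultures, and its arrays varied widely, from 5.64 to 7.95 within the wild-type uninjured group alone. The third (1422170_at) was below background, between 2.42 and 2.60 on every array.

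Avpi1 encodes a protein first known as a vasopressin-induced transcript of kidney collecting duct cells. Its one probe set (1423122_at) read 10.45, 10.70, 10.71 and 10.72 in Mmp7-null scratched cultures, against 10.46, 10.53, 10.53 and 10.38 in Mmp7-null uninjured cultures. In wild-type scratched cultures it read 10.99, 11.04, 11.06 and 11.05, against 10.21, 10.17, 10.11 and 10.24 in wild-type uninjured cultures. All 4 wild-type scratched arrays were above every other array and all 4 wild-type uninjured arrays were below every other array, with both null groups overlapping in between. The response was 0.17 ± 0.06 in null and 0.86 ± 0.06 in wild-type cultures, so the null response had 20.2% of the wild-type size on the log2 scale.

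Fabp5, the epidermal fatty acid binding protein, carries fatty acids in the cytosol and can deliver them to nuclear receptors of the PPAR family. Its leading probe set (1416021_a_at) read 8.95, 8.99, 9.01 and 8.96 in Mmp7-null scratched cultures, against 7.74, 7.89, 7.61 and 7.57 in Mmp7-null uninjured cultures. It read 9.53, 9.47, 9.32 and 9.43 in wild-type scratched cultures, against 7.44, 7.57, 7.25 and 7.26 in wild-type uninjured cultures. Scratched cultures were high in both genotypes and highest in the wild type, and no 2 of the 4 groups overlapped, although the lowest null uninjured array (7.57) and the highest wild-type uninjured array (7.57) nearly met. The response was 1.27 ± 0.08 in null cultures, a 2.42-fold difference, and 2.06 ± 0.08 in wild-type cultures, a 4.16-fold difference. The second Fabp5 probe set (1416022_at) went the same way, with 1.38 ± 0.18 in null and 2.25 ± 0.18 in wild-type cultures.

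Sec23b encodes a subunit of the inner COPII coat, which forms the vesicles that carry newly made proteins out of the endoplasmic reticulum. Probe set 1416059_at read 11.71, 11.57, 11.69 and 11.82 in Mmp7-null scratched cultures, against 11.05, 10.97, 11.20 and 11.25 in Mmp7-null uninjured cultures. It read 12.14, 12.12, 12.12 and 12.11 in wild-type scratched cultures, against 10.82, 11.01, 11.01 and 11.06 in wild-type uninjured cultures. The wild-type scratched arrays, which lay close together, were highest, the null scratched arrays were next with no overlap, and the uninjured arrays of both genotypes overlapped at the low end. The response was 0.58 ± 0.07 in null and 1.15 ± 0.07 in wild-type cultures, and the null response had 50.4% of the wild-type size.

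Sdhaf4 encodes an assembly factor of succinate dehydrogenase, the enzyme shared by the citric acid cycle and the respiratory chain. Probe set 1418327_at read 8.85, 9.04, 8.95 and 9.06 in Mmp7-null scratched cultures, against 9.26, 9.30, 9.37 and 9.27 in Mmp7-null uninjured cultures. It read 9.09, 9.10, 9.16 and 9.21 in wild-type scratched cultures, against 8.997, 9.06, 8.92 and 9.03 in wild-type uninjured cultures. Null uninjured arrays were above all others, wild-type scratched arrays came next, and null scratched and wild-type uninjured arrays overlapped at the low end. The response was -0.32 ± 0.05 in null and 0.14 ± 0.05 in wild-type cultures. Sdhaf4 was the only one of the 10 genes whose null response was the larger in size.

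**Figure D1:**
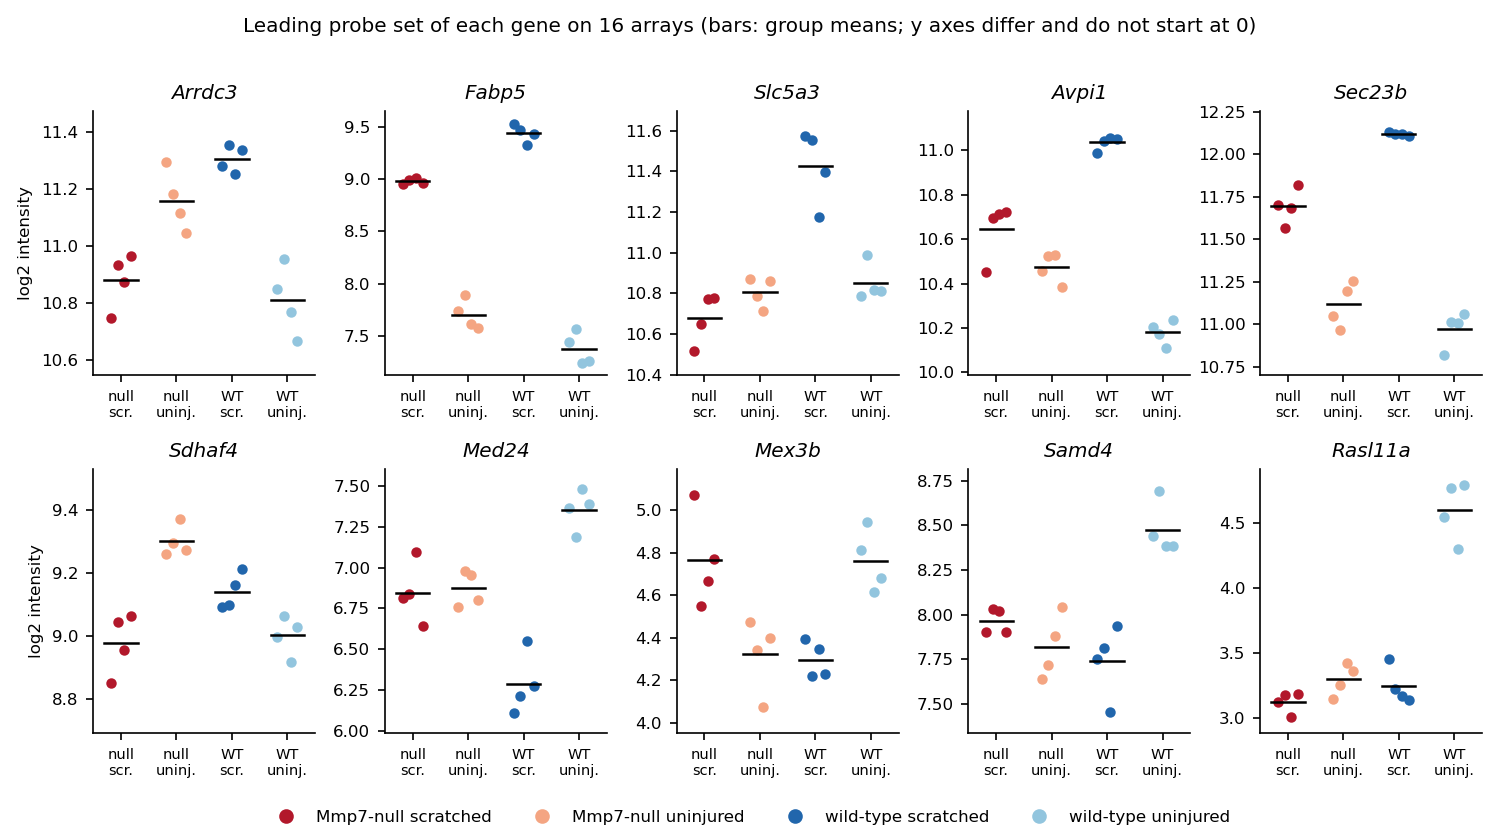
Log2 intensity (vertical axis, a separate scale for each gene that does not start at 0) of the leading probe set of each of the 10 genes on all 16 arrays. Each point is 1 array, colours give the 4 groups of 4 arrays, and each bar is a group mean; the 4 wild-type scratched points of Slc5a3 lie above its 12 other points, and the 4 wild-type uninjured points of Med24, Samd4 and Rasl11a lie above the 12 others of their gene.

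Med24 encodes a subunit of Mediator, the complex that links transcription factors to RNA polymerase II. Its leading probe set (1424180_a_at) read 6.81, 6.84, 7.10 and 6.64 in Mmp7-null scratched cultures, against 6.76, 6.98, 6.96 and 6.80 in Mmp7-null uninjured cultures. It read 6.11, 6.22, 6.55 and 6.28 in wild-type scratched cultures, against 7.37, 7.19, 7.49 and 7.39 in wild-type uninjured cultures. Wild-type uninjured arrays were the highest and wild-type scratched arrays the lowest, with the null groups overlapping in between. The response was -0.03 ± 0.11 in null cultures and -1.07 ± 0.11 in wild-type cultures, where the scratched level was 0.477 times the uninjured one. A second probe set (1431282_at) was below background on every array, at 2.11 to 2.18.

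Mex3b and Samd4 encode RNA-binding proteins. Mex3b carries KH domains and a RING domain of the ubiquitin ligase type. Its probe set (1437152_at) read 5.07, 4.55, 4.67 and 4.77 in Mmp7-null scratched cultures, against 4.48, 4.34, 4.07 and 4.40 in Mmp7-null uninjured cultures. It read 4.39, 4.22, 4.35 and 4.23 in wild-type scratched cultures, against 4.81, 4.94, 4.62 and 4.68 in wild-type uninjured cultures. Scratched arrays were high in the null and low in the wild type, without overlap with the uninjured arrays of their genotype. The response was 0.44 ± 0.11 in null and -0.47 ± 0.11 in wild-type cultures, of nearly equal size and opposite sign. Samd4 is a relative of Smaug, which in Drosophila binds messenger RNAs, represses their translation and recruits the deadenylase complex.

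The leading Samd4 probe set (1424594_at) read 7.90, 8.03, 8.02 and 7.90 in Mmp7-null scratched cultures, against 7.64, 7.72, 7.88 and 8.04 in Mmp7-null uninjured cultures. It read 7.75, 7.81, 7.46 and 7.94 in wild-type scratched cultures, against 8.44, 8.70, 8.39 and 8.38 in wild-type uninjured cultures. The wild-type uninjured arrays stood above the 12 others, and the 3 other groups overlapped. The response was 0.14 ± 0.11 in null and -0.74 ± 0.11 in wild-type cultures. The probe set 1436356_at had the smaller responses of -0.07 ± 0.10 in null and -0.46 ± 0.10 in wild-type cultures. Responses of the probe set 1429449_at were 0.20 ± 0.21 in null and -0.33 ± 0.21 in wild-type cultures, and its wild-type scratched arrays ranged from 3.16 to 4.37. The fourth (1454382_at) was below background, at 2.16 to 2.26.

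Rasl11a encodes a small GTPase related to Ras that has been tied to the synthesis of ribosomal RNA. Its probe set (1429444_at) read 3.13, 3.18, 3.01 and 3.18 in Mmp7-null scratched cultures, against 3.15, 3.26, 3.43 and 3.36 in Mmp7-null uninjured cultures. It read 3.45, 3.23, 3.17 and 3.14 in wild-type scratched cultures, against 4.54, 4.77, 4.30 and 4.79 in wild-type uninjured cultures. The lowest wild-type uninjured array was at 4.30 and the highest array of the 3 other groups at 3.45, close to the background level of 2.97. The response was -0.18 ± 0.10 in null cultures and -1.35 ± 0.10 in wild-type cultures, where the scratched level was 0.391 times the uninjured one. All 16 arrays were above that background level.

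Side by side, the null response minus the wild-type response was negative for 6 genes, with values of -0.78 ± 0.10 for Arrdc3, -0.78 ± 0.11 for Fabp5, -0.70 ± 0.12 for Slc5a3, -0.68 ± 0.08 for Avpi1, -0.57 ± 0.10 for Sec23b and -0.46 ± 0.07 for Sdhaf4. It was positive for 4 genes, with 1.18 ± 0.15 for Rasl11a, 1.04 ± 0.15 for Med24, 0.91 ± 0.16 for Mex3b and 0.88 ± 0.15 for Samd4. The genes fell into those with the same direction in both genotypes and a smaller null response (Fabp5, Sec23b, Avpi1, Rasl11a and Med24) and those with opposite directions (Arrdc3, Slc5a3, Sdhaf4, Mex3b and Samd4). The 95% interval of the null response included 0 for Slc5a3, Med24, Samd4 and Rasl11a, so the sign of those 4 is not settled. The wild-type response was the larger in size for 9 of the 10. Over all genes, 24 (0.132%) passed an adjusted p of 0.05 for this difference, 5 higher (0.0275%) and 19 lower (0.104%), and the 10 genes are part of those 24 by the way they were chosen. Just inside that threshold lay Kif2c (-1.05 ± 0.18) and Mex3b. Just outside it lay Top2a (-0.54 ± 0.10) and Anln (-0.69 ± 0.13).

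**Figure D2:**
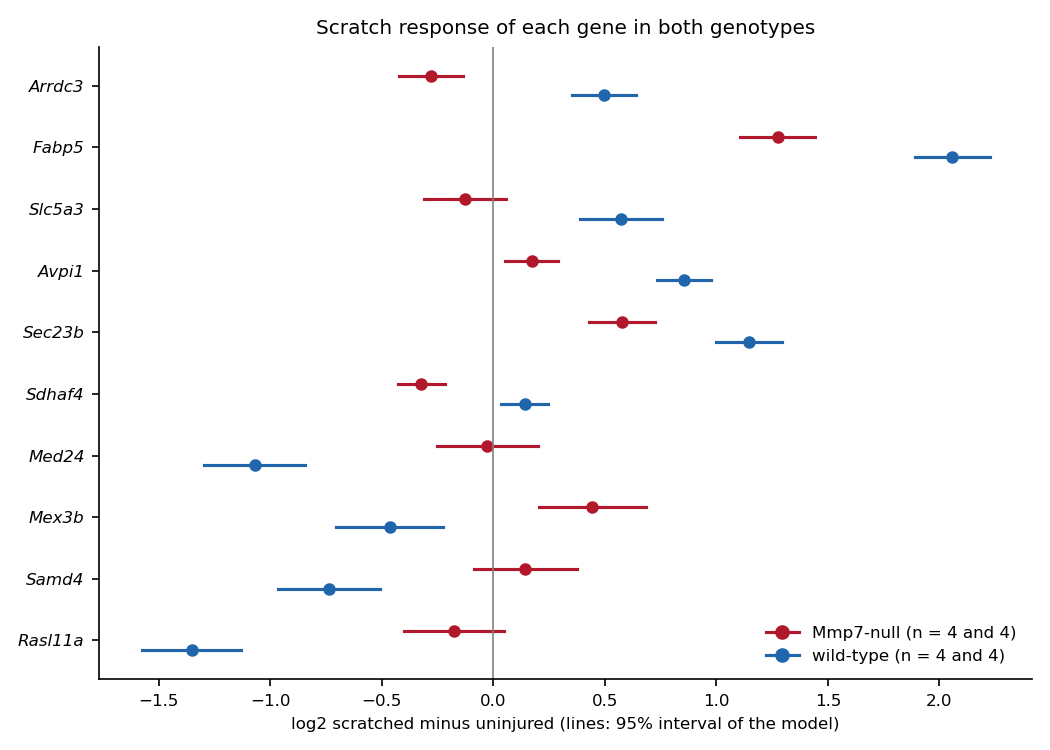
Scratch response of the leading probe set of each of the 10 genes, as log2 scratched minus uninjured (horizontal axis), in Mmp7-null cultures (red) and wild-type cultures (blue). Points are differences of means of 4 and 4 arrays and lines are 95% intervals of the model; the wild-type point lies farther from 0 than the null point for 9 genes, with Sdhaf4 as the exception.

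Separation of groups was counted for each pair, again without a test, since the choice of genes used it. Scratched and uninjured arrays did not overlap for 5 of the 10 genes in Mmp7-null cultures (12.8% of all genes) and for 10 of 10 in wild-type cultures (10% of all genes). Mmp7-null and wild-type arrays did not overlap for 8 of 10 genes in scratched cultures (32.7% of all genes) and for 8 of 10 in uninjured cultures (11.7% of all genes). For 8 genes the genotype difference had opposite signs in the 2 states, although the 95% interval included 0 for Sec23b in uninjured cultures (-0.01 to 0.29) and for Samd4 in scratched cultures (-0.01 to 0.46). In uninjured cultures, the Mmp7-null level was higher for Arrdc3 (0.35 ± 0.07), Fabp5 (0.33 ± 0.08), Sdhaf4 (0.30 ± 0.05), Avpi1 (0.29 ± 0.06) and Sec23b (0.14 ± 0.07). It was lower for Rasl11a (-1.30 ± 0.10), Samd4 (-0.66 ± 0.11), Med24 (-0.48 ± 0.11) and Mex3b (-0.44 ± 0.11), and Slc5a3 differed by -0.04 ± 0.09. These values share the wild-type uninjured arrays with the wild-type scratch response.

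Comparisons averaged over genotypes or over states are other contrasts than the one that chose the genes, but share its arrays and residual spread. A change in a single group enters that difference and both averages, and the choice can favour genes with a small spread. The counts among the 10 genes are therefore not independent of the choice. Both averaged comparisons were tested with limma over all 18193 genes with Benjamini-Hochberg adjustment. Averaged over genotypes, 7 of the 10 genes changed with scratch, against 10.5% of all genes. Of these, 4 rose (against 4.24% of all genes): Fabp5 by 1.67 ± 0.06 (adjusted p = 1.6e-09), Sec23b by 0.86 ± 0.05 (adjusted p = 1.7e-07), Avpi1 by 0.51 ± 0.04 (adjusted p = 2.2e-06) and Slc5a3 by 0.22 ± 0.06 (adjusted p = 0.03). The other 3 fell (against 6.3% of all genes): Rasl11a with -0.76 ± 0.07 (adjusted p = 1.7e-05), Med24 with -0.55 ± 0.08 (adjusted p = 0.00032) and Samd4 with -0.30 ± 0.08 (adjusted p = 0.023). The remaining 3 did not pass: Arrdc3 at 0.11 ± 0.05 (adjusted p = 0.19), Sdhaf4 at -0.09 ± 0.04 (adjusted p = 0.12) and Mex3b at -0.01 ± 0.08 (adjusted p = 0.97). Among the 7 called genes, Fabp5, Sec23b and Avpi1 rose in both genotypes. The null response was -0.13 ± 0.09 for Slc5a3 and 0.14 ± 0.11 for Samd4, opposite in sign to their averages. It was -0.03 ± 0.11 for Med24 and -0.18 ± 0.10 for Rasl11a. The model intervals of the null response reached both signs for Slc5a3, Samd4, Med24 and Rasl11a. The calls of those genes thus describe mainly the wild-type cultures. The median over the 10 genes was 0.05 and over all genes -0.00 on the log2 scale. The Slc5a3 call was lost when any 1 of 9 arrays was left out (adjusted p from 0.056 to 0.064), and the Samd4 call was lost without 3 arrays of doubtful quality, wild-type scratched 3 and 4 and Mmp7-null scratched 1 (-0.26, adjusted p = 0.056).

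Averaged over scratched and uninjured cultures, 2 of the 10 genes differed between genotypes, against 10.3% of all genes, and both were lower in Mmp7-null cultures (5.29% of all genes). Rasl11a differed by -0.71 ± 0.07 (limma, adjusted p = 3.4e-05) and Slc5a3 by -0.39 ± 0.06 (adjusted p = 0.00077). Neither average describes both states. The Rasl11a difference was -1.30 ± 0.10 in uninjured and -0.12 ± 0.10 in scratched cultures, where the genotypes overlapped. That of Slc5a3 was -0.75 ± 0.09 in scratched and -0.04 ± 0.09 in uninjured cultures, where the genotypes overlapped. The other 8 lay between -0.22 ± 0.08 for Samd4 (adjusted p = 0.095) and 0.07 ± 0.04 for Sdhaf4 (adjusted p = 0.26), and none of the 10 was called higher (4.98% of all genes). The 95% intervals of those 8 reached down to -0.38 (Samd4) and up to 0.20 (Med24). The median was -0.06 over the 10 genes and -0.03 over all genes.

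**Figure D3:**
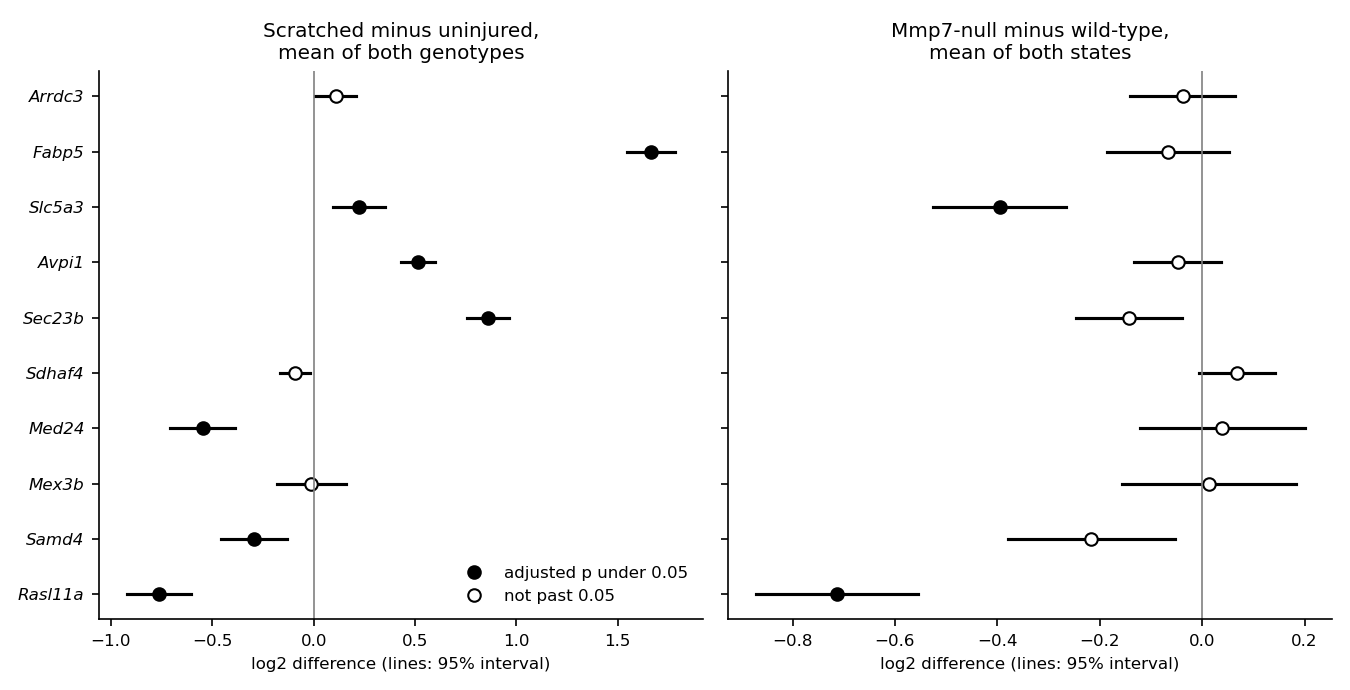
The comparisons that did not choose the 10 genes. The left panel gives scratched minus uninjured averaged over genotypes and the right panel Mmp7-null minus wild-type averaged over states, both as log2 differences of leading probe sets over 16 arrays with 95% intervals. Filled points passed an adjusted p of 0.05 over all genes (7 genes on the left, Slc5a3 and Rasl11a on the right).

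Control transcripts added to the samples divide the arrays into 3 sets, whose meaning the labels do not state. The Lys set held 2 scratched and 2 uninjured Mmp7-null arrays, the Trpn set 3 scratched and 3 uninjured wild-type arrays, and the Phe set 2 and 2 Mmp7-null and 1 and 1 wild-type arrays, so genotypes can be set against each other only in the Phe set. The Phe arrays are part of those that chose the genes, with 1 wild-type array per state, so their values are a description. Within the Phe set, the difference between scratch responses kept its sign for all 10 genes. It was smaller than over all arrays for Rasl11a (0.79 ± 0.25), Arrdc3 (-0.61 ± 0.17), Avpi1 (-0.54 ± 0.14), Fabp5 (-0.67 ± 0.17), Sdhaf4 (-0.42 ± 0.14), Mex3b (0.79 ± 0.25) and Samd4 (0.75 ± 0.26). It was larger for Med24 (1.35 ± 0.25), Sec23b (-0.91 ± 0.10) and Slc5a3 (-0.86 ± 0.22). For Sec23b the Lys and Trpn arrays alone gave a smaller difference of -0.34 ± 0.07. With the set as a block, the averaged genotype difference stayed past the threshold for Rasl11a (-0.75, adjusted p = 0.021) and not for Slc5a3 (-0.43, adjusted p = 0.099), and the count over all genes was 216 in place of 1869.

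**Figure D4:**
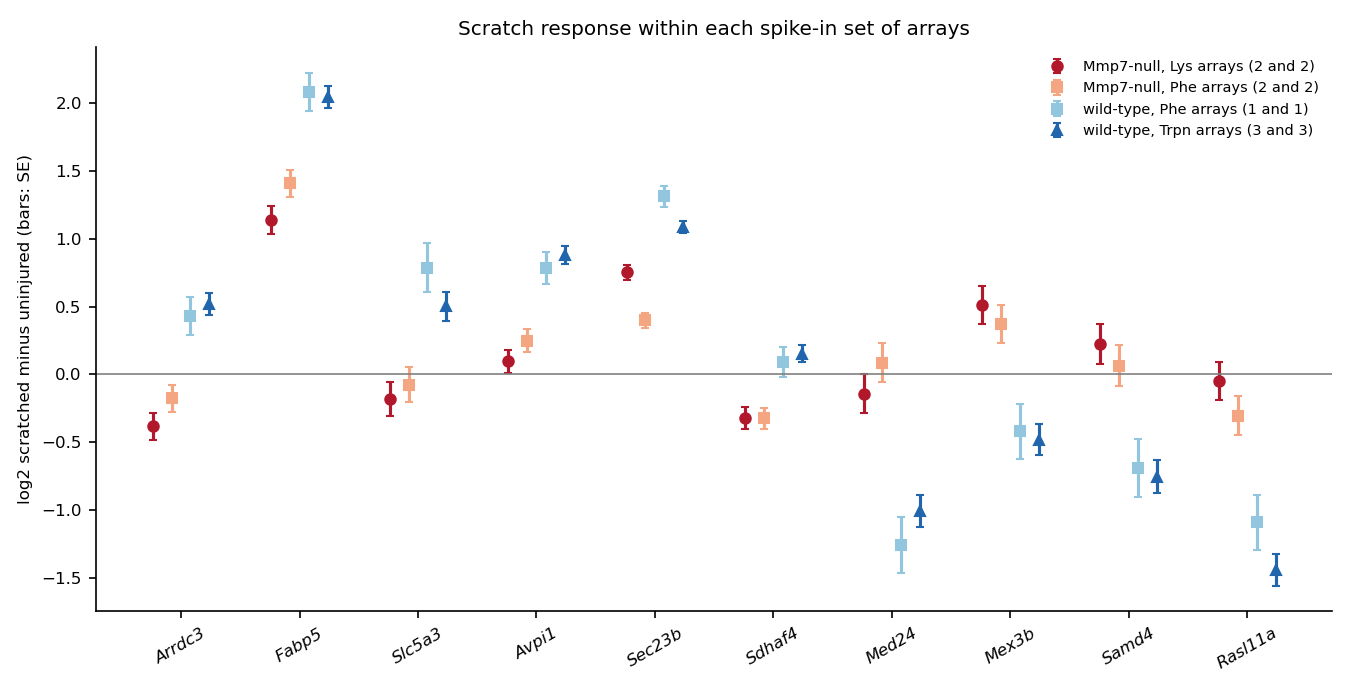
Scratch response (vertical axis, log2 scratched minus uninjured) of the 10 genes within each spike-in set, with standard errors from a fit that gives each group its own mean in each set. Red and orange points are Mmp7-null cultures on Lys and Phe arrays, light and dark blue points are wild-type cultures on Phe and Trpn arrays; both null points lie on the same side of both wild-type points for each gene, and the numbers of scratched and uninjured arrays stand in the legend.

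In RNA from whole cultures, fewer cells of a type and less RNA per cell cannot be told apart. Summed linear intensities of the epithelial markers were 78800 to 85700 in Mmp7-null scratched and 72900 to 76700 in Mmp7-null uninjured cultures. They were 82200 to 85400 in wild-type scratched and 72000 to 79700 in wild-type uninjured cultures. Cyp2f2 (mean 15.47) was the brightest and weighs most in these sums, which can hide changes in others. Averaged over genotypes, Muc5b (2.95), Krt18 (0.49) and Krt8 (0.46) rose with scratch (limma, adjusted p under 0.05). Krt5 (-0.63) and Trp63 (-0.35) fell. Averaged over states, Foxj1 (0.73) and Krt8 (0.185) were higher and Cdh1 (-0.149) lower in Mmp7-null cultures. Of 6 measured leukocyte markers 3 were above background (Csf1r, Cd68 and Lyz2), and the defining markers Ptprc, Cd3e and Itgam were at background. Cd68 is itself one of the 24 genes above, with a difference between responses of -1.12 ± 0.19. The sums were 8900 to 11100 in Mmp7-null scratched, 6420 to 8740 in Mmp7-null uninjured, 8690 to 11000 in wild-type scratched and 6480 to 8640 in wild-type uninjured cultures. Among fibroblast and smooth muscle markers 1 of 8 was above background in its mean over the 16 arrays, Acta2. Sums were 284 to 556 and 182 to 290 in Mmp7-null scratched and uninjured cultures, against 175 to 279 and 103 to 135 in wild-type scratched and uninjured cultures. Col3a1 averaged 3.73 in Mmp7-null scratched cultures, with a standard deviation of 1.21. It averaged 2.69 in Mmp7-null uninjured, 2.71 in wild-type scratched and 2.69 in wild-type uninjured cultures. None of 5 endothelial markers was above background.

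All 7 alveolar markers were above background although the labels name airway epithelium. Their sums were 15900 to 19500 and 19200 to 22900 in Mmp7-null scratched and uninjured cultures, against 23100 to 26700 and 25300 to 26200 in wild-type scratched and uninjured cultures. Single markers went different ways. Averaged over states, Sftpc was higher in Mmp7-null cultures (1.65 ± 0.11, limma, adjusted p = 1.3e-06). Ager (-2.32 ± 0.15), Hopx (-0.50 ± 0.06) and Aqp5 (-0.28 ± 0.05) were lower, and Sftpb, Sftpa1 and Pdpn did not pass. The part of these markers in the results for the 10 genes was not tested. The gap between the 3′ and 5′ ends of the actin control transcript, a sign of RNA quality, was 1.61 to 1.83 on the log2 scale in Mmp7-null scratched and 1.71 to 1.86 in Mmp7-null uninjured cultures. It was 1.53 to 2.62 in wild-type scratched and 1.59 to 1.93 in wild-type uninjured cultures. The 3 doubtful arrays named above were those with a low upper quartile (6.85 on wild-type scratched 3 and 6.90 on Mmp7-null scratched 1) or a wide actin gap (2.62 on wild-type scratched 4).

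Relatives and partners of the 10 genes were taken from 9 lists with 152 measured genes other than the 10. Averaged over genotypes, 6 rose and 15 fell with scratch (13.8%, against 10.5% of all genes). Averaged over states, 11 were higher and 20 lower in Mmp7-null cultures (20.4%, against 10.3% of all genes), of which only Cd36 and Med31 were also called when the spike-in set was a block. None passed the limma test for a difference between scratch responses, and 12 had an unadjusted p under 0.05. The share of all genes under that unadjusted value is not given here, so the 12 cannot be set against it. By list, the genotype calls not described below were Txnip (higher) among the arrestins, Acsl3 (higher), Rxra and Acsl5 (lower) among the fatty acid genes, and Aqp4 (higher), Aqp3, Aqp5 and the 3 sodium channel subunits (lower) among the transport genes. Cnot3 was lower among the CCR4-NOT genes, and Diras2 was higher and Rasl11b, Nkiras1 and Rras lower among the small GTPases. Of the 21 scratch calls, 18 were also made with the block and 13 without the 3 doubtful arrays. Those of Rerg, Sec16a and Suclg1 were lost in both settings, and those of Med7, Med10, Med27, Ppard and Sdhc only without the doubtful arrays.

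Among 12 alpha-arrestins, arrestins and their ubiquitin ligases, 2 rose with scratch and none fell. Txnip, an alpha-arrestin that also binds thioredoxin and limits glucose uptake, rose by 0.37 ± 0.06 (adjusted p = 0.001), and Arrdc4 rose by 0.21 ± 0.05 (adjusted p = 0.025). The mean level of Txnip was 11.33 and 11.03 in Mmp7-null scratched and uninjured cultures, against 11.19 and 10.74 in wild-type scratched and uninjured cultures, so its scratched mean was the higher in both genotypes.

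Of 19 fatty acid binding proteins and partners, 2 rose and 2 fell with scratch. Cd36, a fatty acid transporter of the cell surface, fell with -0.63 ± 0.07 (adjusted p = 6.9e-05), and Pparg, a lipid-sensing nuclear receptor, fell with -0.44 ± 0.09 (adjusted p = 0.0059). Acsl3, which activates fatty acids, rose by 0.31 ± 0.07 (adjusted p = 0.014), and Ppard, the nuclear receptor that Fabp5 is known to supply, rose by 0.24 ± 0.06 (adjusted p = 0.028). Cd36 was also lower in Mmp7-null cultures, with -0.72 ± 0.07 (adjusted p = 2.3e-05). No other measured fatty acid binding protein passed the scratch test, but their low levels leave little room to see a response. Fabp2, Fabp3, Fabp7, Fabp9, Fabp12 and Pmp2 were below background in their mean. Fabp1 (3.14), Fabp4 (3.19) and Fabp6 (3.64) were not far above the background of 2.97.

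No gene of 9 inositol and osmolyte genes, of which 6 were above background, passed the scratch test. In Mmp7-null cultures Hspa4l (0.35 ± 0.06, adjusted p = 0.0014) and Nfat5, the transcription factor of the osmotic stress response (0.29 ± 0.07, adjusted p = 0.016), were higher, and neither was called with the set as a block. Mrps6, a mitochondrial ribosomal protein whose gene overlaps Slc5a3 in GRCm38.p6, was lower by the averaged test (-0.24 ± 0.03, adjusted p = 6e-05), a call also lost with the block. Its level was 10.55, 10.66, 10.71 and 10.67 in Mmp7-null scratched and 10.78, 10.88, 10.84 and 10.82 in Mmp7-null uninjured cultures. It was 10.95, 11.02, 11.07 and 11.08 in wild-type scratched and 10.99, 10.93, 10.91 and 10.92 in wild-type uninjured cultures. Its difference between scratch responses, -0.28, had the sign of that of Slc5a3 and did not pass (limma, adjusted p = 0.085), and whether probes of one gene also detect transcripts of the other was not tested.

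In the list of 12 vasopressin, sodium and water transport genes, 4 fell with scratch (against 6.3% of all genes) and none rose. Only 7 of the 12 were above background, and the vasopressin receptors Avpr2, Avpr1a and Avpr1b were not among them. All 3 measured subunits of the epithelial sodium channel fell, Scnn1b with -0.64 ± 0.14 (adjusted p = 0.0087), Scnn1g with -0.42 ± 0.10 (adjusted p = 0.015) and Scnn1a with -0.32 ± 0.06 (adjusted p = 0.0019). The water channel Aqp5 fell with -0.21 ± 0.05 (adjusted p = 0.015). Avpi1, which rose, thus went against the called genes of this list.

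Of 21 COPII coat genes and regulators, only Sec16a, a scaffold of the exit sites of the endoplasmic reticulum, rose with scratch (0.20 ± 0.06, adjusted p = 0.046), and this call was lost both with the spike-in block and without the doubtful arrays. In the same list 6 were lower in Mmp7-null cultures, with Creb3l2, a transcription factor of secretory genes, lowest at -0.56 ± 0.08 (adjusted p = 0.00058), and none of these calls was made with the block. Of 11 succinate dehydrogenase and neighbouring genes, 3 fell with scratch: Sdhc (-0.33 ± 0.08, adjusted p = 0.02), Suclg2 (-0.25 ± 0.04, adjusted p = 0.0026) and Suclg1 (-0.16 ± 0.05, adjusted p = 0.046). Sdhc encodes a membrane anchor of succinate dehydrogenase, and Suclg1 and Suclg2 encode subunits of succinyl-CoA ligase.

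Of 32 Mediator genes other than Med24, 5 fell with scratch and none rose. Med27 fell with -0.52 ± 0.11 (adjusted p = 0.006), Med7 with -0.28 ± 0.07 (adjusted p = 0.028), Med30 with -0.27 ± 0.06 (adjusted p = 0.0055), Med11 with -0.21 ± 0.05 (adjusted p = 0.015) and Med10 with -0.14 ± 0.04 (adjusted p = 0.025). Med27 had mean levels of 4.44 and 4.84 in Mmp7-null scratched and uninjured cultures, against 4.24 and 4.87 in wild-type scratched and uninjured cultures, so the scratched mean was the lower in both genotypes. Between genotypes, 5 Mediator genes were higher in Mmp7-null cultures (Med8, Med25, Med31, Ccnc and Cdk8), with Med31 at 0.47 ± 0.05 (adjusted p = 2.3e-05), and Med10 was lower at -0.20 ± 0.04 (adjusted p = 0.0027). Of these 6 genotype calls only that of Med31 was also made with the block. No gene of 19 mRNA-binding repressors and CCR4-NOT subunits passed the scratch test.

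Of 17 small GTPases related to Ras, Rerg, a Ras-like growth inhibitor, rose with scratch (0.55 ± 0.15, adjusted p = 0.033) and Rasl11b, the paralog of Rasl11a, fell (-0.78 ± 0.12, adjusted p = 0.00072). Rasl11b had mean levels of 5.31 and 6.21 in Mmp7-null scratched and uninjured cultures, against 5.92 and 6.59 in wild-type scratched and uninjured cultures. The Rasl11b mean was thus lower after scratch in both genotypes, and its difference between scratch responses was -0.22 (limma, adjusted p = 0.76), against 1.18 for Rasl11a.

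**Figure D5:**
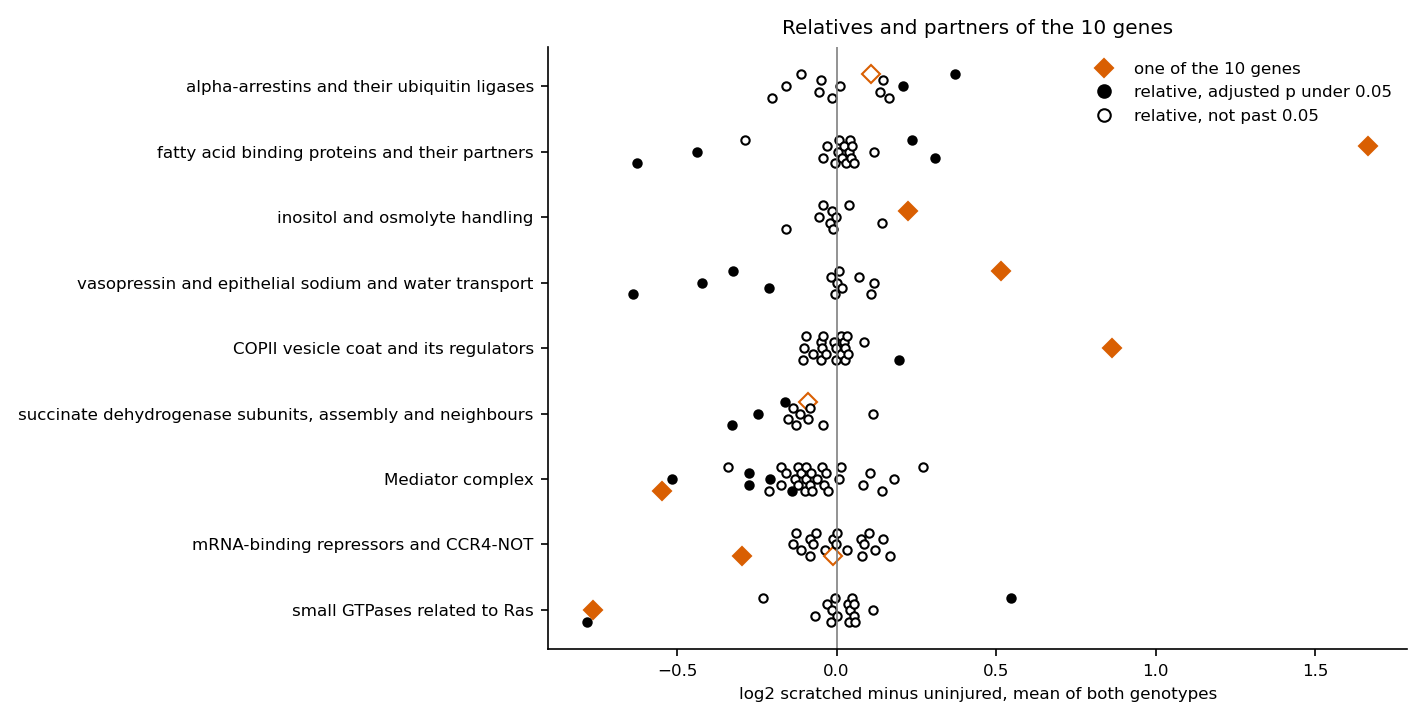
Scratched minus uninjured averaged over genotypes (horizontal axis, log2) for the 10 genes (orange diamonds) and their relatives and partners (circles) in 9 lists. Filled symbols passed an adjusted p of 0.05 over all genes; the 5 filled Mediator circles lie below 0, and the filled circle below 0 among the small GTPases is Rasl11b.

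Genes whose level across the 16 arrays was most like that of each of the 10 were taken from 11655 genes above background, by Pearson's r, as a description. The 16 points share groups, spike-in sets and normalization. For Sec23b these were Agr2 (r = 0.991), Tcn2 (0.977) and Edn1 (0.967), and for Fabp5 they were Edn1 (0.982), Ccnb2 (0.977) and Kif22 (0.974). Agr2, which encodes a disulfide isomerase of mucus-secreting cells, had a response of 1.44 in null and 2.54 in wild-type cultures. For Avpi1 they were Cdca3 (0.951), Anln (0.947) and Mad2l1 (0.946), and for Rasl11a they were Fras1 (0.942), Lnx2 (0.919) and Pfkl (0.915).

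For Slc5a3 the most alike were Man2a1 (0.918), Acaa1b (0.908) and E2f2 (0.906), for Sdhaf4 Cisd1 (0.902), Sbsn (0.901) and Skap2 (0.888), and for Arrdc3 Fh1 (0.894), Ap3s1 (0.892) and Kcnk1 (0.887). For Samd4 they were Dock8 (0.889), Noa1 (0.882) and Lrp4 (0.881), for Med24 Crip2 (0.871), Adamtsl4 (0.849) and Rin1 (0.848), and for Mex3b Cep164 (0.775), Rhbdf2 (0.757) and Slc7a1 (0.733). Mex3b thus had the least similar of these nearest genes. None of the genes named was itself one of the 10. Among the 10, r ran from -0.889 (Avpi1 and Med24) to 0.954 (Fabp5 and Sec23b).

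The genes next to each of the 10 in GRCm38.p6 were examined as well, and none of the 20 measured neighbours passed the test for a difference between scratch responses. Kcne2, a potassium channel subunit next to Slc5a3 on chromosome 16, had levels of 6.39, 6.30, 6.53 and 6.46 in Mmp7-null scratched and 5.84, 4.66, 5.19 and 6.10 in Mmp7-null uninjured cultures. In wild-type scratched cultures it had 8.31, 8.64, 8.37 and 8.32, against 5.26, 6.16, 5.84 and 5.32 in wild-type uninjured cultures. Wild-type scratched arrays were above all others. The response was 0.98 ± 0.27 in null and 2.77 ± 0.27 in wild-type cultures, and the difference of -1.79 missed the threshold (limma, adjusted p = 0.11), while the averaged scratch response of 1.87 passed (adjusted p = 2.5e-05). Csf3, the granulocyte colony-stimulating factor next to Med24 on chromosome 11, responded by 1.07 ± 0.16 in null and 1.07 ± 0.16 in wild-type cultures, whereas Med24 had -0.03 and -1.07.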

How the data were processed

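RNA of 16 cultures was hybridised to 16 Affymetrix arrays, 4 per group, with the genotype and state of each taken from the labels. The deposited values are linear intensities per probe set that the authors obtained with RMA, per the submitters' processing notes, whose version is not given in the sources used here. The labels name the smaller 430A version of the array, whereas the table holds 45101 probe sets and was used as it is. Intensities were converted to log2 without further normalization. The 64 control probe sets were set aside. A single gene symbol was annotated to 34945 of the 45037 that remain, and the 932 with several symbols and the 9160 with none were left out. Each of 18193 genes is represented by its brightest probe set.

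Tests used R 4.3.3 with limma 3.58.1 (lmFit and eBayes, 1 mean per group, all 16 arrays, 12 residual degrees of freedom), with Benjamini-Hochberg adjustment over all genes and a threshold of 0.05. Adjusted p-values in the text come from this fit, and errors given as ± are its standard errors. The difference between scratch responses, and the responses it is made of, are given without a test for the 10 genes. The script was tested on simulated data. The number of arrays limits the precision. Background is the 95th percentile of control transcripts absent from an array.

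The members and lists were chosen with earlier results of these data known. The text names the 10 genes with all their probe sets, part of the list genes called in the averaged comparisons (all of those called for scratch), the 3 genes most like each of the 10, and direct neighbours. Promoters and gene neighbours come from RefSeq (GRCm38.p6), with neighbours taken by position among protein-coding genes. The genome build behind the probe annotation is not given in the sources used here. Alternatives were a replicate block, the spike-in set as a block or within sets, removal of doubtful or single arrays or of dim genes, repeated quantile normalization, median centring, other uses of several probe sets, and a trended, robust variance. Whether equal replicate numbers pair the arrays is not settled, and the main fit treats them as unpaired. Deviations of same-numbered arrays from their group means correlated between -0.218 and 0.307, and 3 of 16 pairs were over 0.1. Wild-type scratched and uninjured arrays correlated at 0.144 for number 2 and 0.307 for number 3. The values for numbers 1 and 4 were -0.105 and -0.041.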

Additional observations from a re-analysis of the deposited data

Results flagged for a closer look

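For each of the 10 genes the scratch response differed between Mmp7-null and wild-type cultures, which is why these genes were chosen, so the flag adds no evidence. The null response minus the wild-type response was -0.776 for Arrdc3, -0.782 for Fabp5, -0.701 for Slc5a3, -0.683 for Avpi1, -0.569 for Sec23b and -0.462 for Sdhaf4. It was 1.043 for Med24, 0.909 for Mex3b, 0.881 for Samd4 and 1.178 for Rasl11a, all on the log2 scale.

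A single array stood apart from the other 3 of its group by Dixon's criterion in 2 of 56 groups examined, and chance flags about 1 in 20 groups. Avpi1 read 10.453 on Mmp7-null scratched array 1, against 10.697 to 10.721 on the other 3. That array is one of the 3 of doubtful quality, and without those 3 the Avpi1 difference between responses was -0.599. Slc5a3 read 10.988 on wild-type uninjured array 2, against 10.788 to 10.818 on the other 3.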

How the results depend on the processing

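The difference between scratch responses kept its sign for all 10 genes in the 26 settings that gave a value. It ran from -0.914 (Sec23b, within the Phe arrays) to 1.347 (Med24, same arrays). These settings reuse the arrays that chose the genes, so the kept sign is a description. Neither block nor the removal of dim genes can alter this estimate. No called value changed sign. Values near 0 that were not called or not tested did: the averaged genotype difference of Mex3b (0.01, and -0.18 with the spike-in block) and of Med24, the averaged scratch response of Mex3b, the null response of Med24 and the uninjured genotype difference of Slc5a3. The count of genes called for it, 24, was 14 with a replicate block, 50 without the 3 doubtful arrays, 37 without the dimmest 40% of genes, 58 after repeated quantile normalization and 5 after centring each array on its median. Leaving out 1 array gave 8 (without Mmp7-null scratched 3) to 28 (without wild-type scratched 4), and 12 without Mmp7-null uninjured 3, wild-type uninjured 1 or wild-type scratched 2, 15 without Mmp7-null scratched 4 and 14 without wild-type scratched 1. Of those genes the 10 described here made up 8 of 14 with the replicate block, 7 of 50 without the doubtful arrays, 8 of 58, 4 of 5, and 5 to 7 in the leave-one-out fits. The replicate block changed no call of an averaged comparison among the 10 genes and moved no other count by over 1.5 times.

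For the averaged genotype difference, the spike-in set as a block gave 216 genes in place of 1869 and 1 of the 10 genes in place of 2, and leaving out 1 array gave 2 to 4 (4 without Mmp7-null uninjured 4, where Samd4 and Sec23b were added). Leave-one-out counts over all genes were 1521 to 1960 for scratch and 1568 to 1909 for genotype. With all probe sets averaged, the Slc5a3 calls were lost (scratch adjusted p = 0.73, genotype adjusted p = 0.18, limma), and its scratch call was also lost with the spike-in block (0.051) and after centring (0.08). Calls gained (limma, adjusted p) were Arrdc3 for scratch after repeated quantile normalization (0.048) and, for genotype, Sdhaf4 without the doubtful arrays (0.046), Samd4 after repeated quantile normalization (0.041), with all probe sets averaged (0.042) and without Mmp7-null uninjured 4 (0.043) or wild-type scratched 3 (0.024), and Sec23b without Mmp7-null uninjured 4 (0.041), Mmp7-null scratched 4 (0.048) or wild-type uninjured 1 (0.035). The cause of these changes was not tested. Repeated quantile normalization and centring gave 45.7% and 31.9% of scratch calls as higher, against 40.3%. The Rasl11a level near background limits how far it can fall.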
